A study of Mus musculus with 10 samples.

Results

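The genes described here are p53 itself, the proteins that restrain it, its family member p63 and the kinases that act upstream of it when DNA is damaged, in mouse skin during the first 48 hours after cyclophosphamide. They were taken by symbol from an RNA-seq table of 24331 genes, and all 9 (Trp53, Mdm2, Mdm4, Ppm1d, Trp63, Atm, Atr, Chek1 and Chek2) had a row and passed the filter on low values. Each sample was back skin in its full thickness from male wild-type C57BL/6 mice, 7 to 8 weeks old, whose hair follicles had been brought into anagen, the growth phase, by wax depilation. Cyclophosphamide, a prodrug whose products crosslink DNA, was dissolved in PBS and injected into the peritoneum at 150 mg/kg on day 9 after depilation. Time 0h is skin from before the drug, the later times are 6h, 12h, 24h and 48h from the injection, and each of the 5 times has 2 libraries, 10 in all. Every group had been depilated, no mice injected with vehicle are among the samples used here, and time since injection cannot be told apart from time since depilation.

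p53 is a transcription factor that cells keep scarce by constant destruction of the protein. MDM2, a ubiquitin ligase, marks p53 for the proteasome, and MDM4 binds it and blocks its activity. Broken DNA and stalled replication activate the kinases ATM and ATR, which switch on CHK2 and CHK1 and modify p53 and MDM2, so that p53 protein accumulates and turns on its targets. Mdm2 and Ppm1d, which encodes the phosphatase WIP1, are themselves p53 targets and close a negative feedback. In mice, loss of p53 protects hair follicles from cyclophosphamide. Most of these steps act on protein, which RNA levels do not show.

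Mdm2 was the only one of the 9 genes to change past the threshold at any time. It rose by 48h, and all 8 libraries taken after the injection lay above both 0h libraries. At single times, both libraries lay above both of 0h for 23.1% of all tested genes at 6h and 27% at 48h. Trp53 and Trp63 were at their lowest at 24h and near their 0h levels at 48h, but neither passed. Among the 4 kinases, Chek2 had its highest levels at 48h without passing, and those of Atm overlapped 0h at every later time. Levels are in FPKM, a fragment count scaled by transcript length and by the mapped fragments of the library, which allows levels of different genes to be compared per length. Differences are on the log2(FPKM + 1) scale, which understates the change of low genes, and were tested with limma across 13625 genes with Benjamini-Hochberg adjustment and a threshold of 0.05.

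The 10 libraries had summed FPKM of 862653 to 978550, and their depth relative to each other, read from the low values, spanned 1 to 1.419, with both extremes at 0h. FPKM keep no read totals, so the absolute depth behind each value is unknown. All 18 markers of skin and hair follicle were detected in every library, the lowest being Shh. The keratins and keratin-associated proteins of hair made up 15.6% to 18.68% of summed FPKM at 24h and 11.25% to 13.5% at 0h. Summed FPKM of 10 skeletal muscle genes were 4687 to 7007 in the libraries after injection, against 10330 and 11600 at 0h, and their part in the differences below was not tested. The same sums were 37.35 to 77.49 for 11 leukocyte genes, 2083 to 4124 for 10 adipocyte genes and 17.26 to 641.5 for 6 red blood cell genes. In none did all later libraries split from 0h, but single times did. Red blood cell sums were 384.7 and 641.5 at 6h and 24.59 and 17.26 at 48h, against 68.97 and 171.3 at 0h. At 12h leukocyte sums were 41.32 and 37.35, against 46.3 and 57.1 at 0h. Adipocyte sums at 12h were 2621 and 2594, against 2631 and 3351 at 0h. The part of these cells was not tested. In this bulk tissue, fewer cells of a type and less RNA per cell cannot be told apart. Across all tested genes and against 0h, limma called 4 genes higher and 2 lower at 6h. It called 38 higher and 109 lower at 12h, 187 higher and 265 lower at 24h, and 654 higher and 561 lower at 48h. With median-of-ratios scaling the split was 40 higher and 45 lower at 12h, and 304 higher and 161 lower at 24h. With hair genes left out it was 770 higher and 324 lower at 48h.

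The genes spanned a wide range of levels. Over all 10 libraries Trp53 averaged 33.9 FPKM and Trp63 33.3 FPKM, and neither was consistently above the other, since Trp53 was the higher in 5 libraries. Mdm2 averaged 19.3 FPKM, below Trp63 in all 10 libraries with no overlap of their ranges. Mdm4 (17.3 FPKM) was below Mdm2 in 8 libraries, and Ppm1d (11.8 FPKM) below Mdm4 in all 10 although the ranges over all libraries overlapped. The 4 kinases stood well below these. Chek2 averaged 3.38 FPKM, Atr 1.98 FPKM, Chek1 1.59 FPKM and Atm 1.52 FPKM. Chek2 exceeded Atr in all 10 libraries with overlapping ranges, Atr exceeded Chek1 in 9, and Chek1 exceeded Atm in only 4, so the order of the last 2 is not resolved. Ranked by mean level among the tested genes, Trp53 stood at percentile 80.8 and Atm at percentile 10.2.

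**Figure D1:**
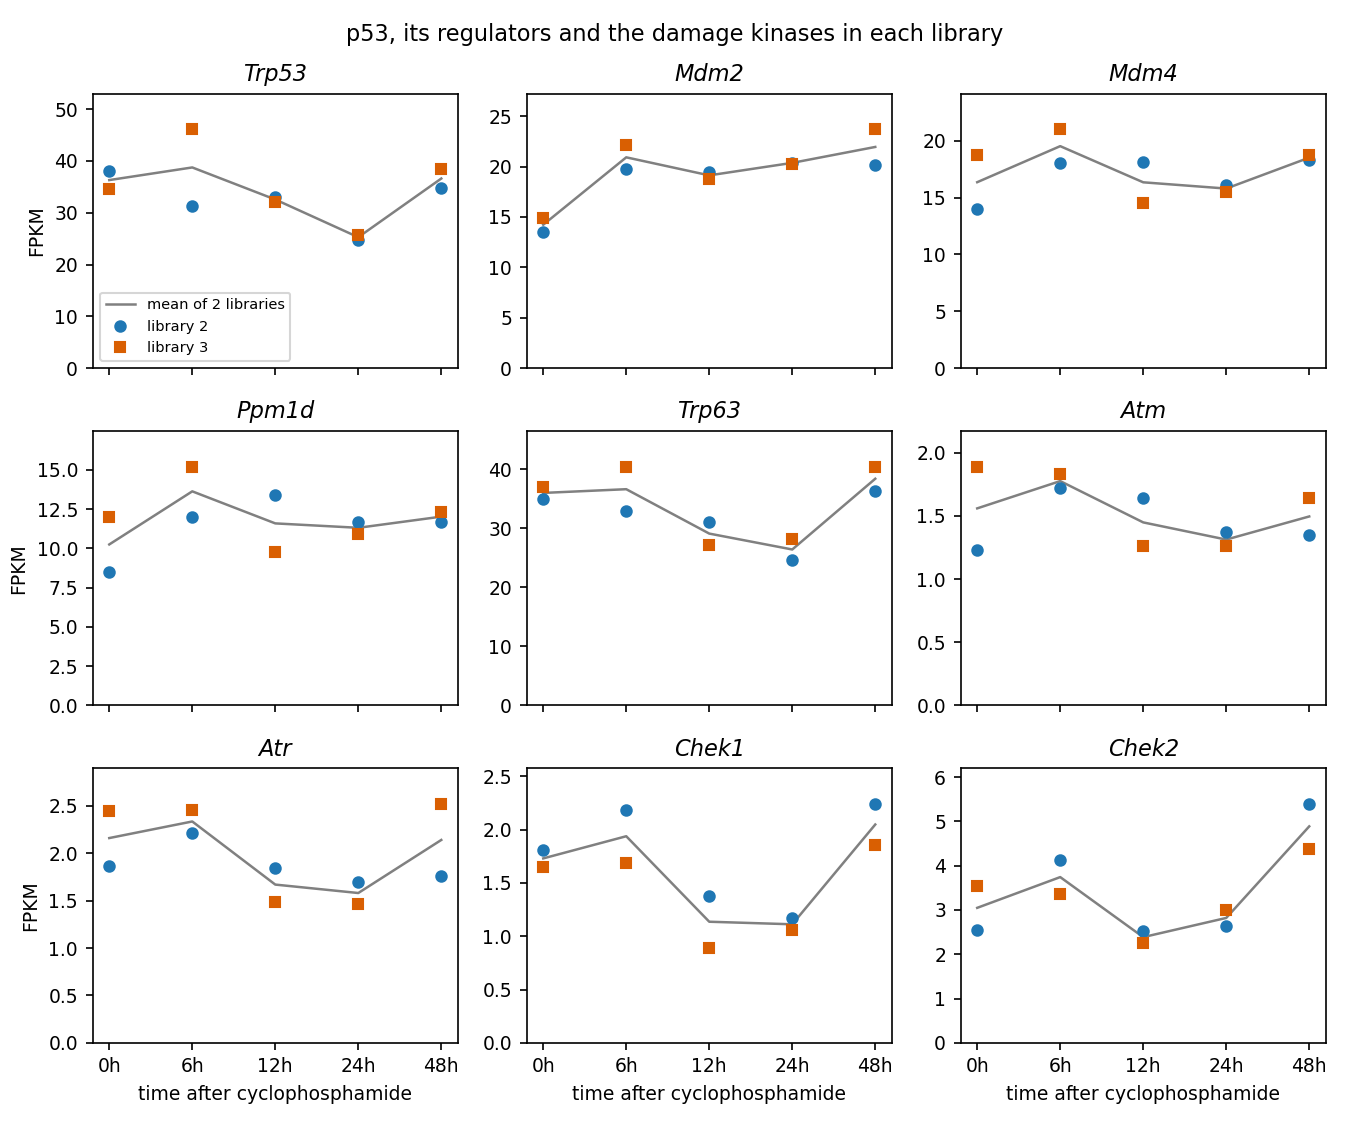
FPKM of the 9 genes (vertical axes, each from 0) by time after cyclophosphamide (horizontal axis, evenly spaced). Circles and squares are the 2 libraries of a time and lines join their means. Mdm2 sits above both 0h libraries at every later time, Trp53 and Trp63 dip at 24h, and Chek1 and Chek2 are on average lowest at 12h and 24h and highest at 48h. For 27% of all tested genes both 48h libraries lie above both 0h libraries.

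p53 is encoded by Trp53 (chromosome 11, 69580359 to 69591873, plus strand, GRCm38). Its level was 38 and 34.6 FPKM at 0h, 31.3 and 46.1 FPKM at 6h, 33 and 32.1 FPKM at 12h, 24.8 and 25.7 FPKM at 24h, and 34.7 and 38.5 FPKM at 48h. The 24h libraries were the lowest of the 10, the 6h libraries held both a low and the highest value, and 48h overlapped 0h. Trp53 averaged 25.3 ± 0.655 FPKM at 24h and 36.3 ± 2.44 FPKM at 0h (SD, n = 2 each), a log2 difference of -0.50 (SE 0.164, 95% interval -0.87 to -0.14). The limma adjusted p was 0.125. Under the other processing choices the difference ran between -0.519 and -0.401 and its adjusted p between 0.0957 and 0.308, so none passed. The spread at 6h weighs in this test because 1 estimate of the spread serves all times: without 6h library 2 the adjusted p became 0.0349 and without 6h library 3 it became 0.035, and over all single-library omissions it ran between 0.0349 and 0.336. At 48h Trp53 was back above 24h by 0.52 on the log2 scale (adjusted p = 0.126, 0.0439 and 0.0438 if 6h library 2 or 3 is left out, and up to 0.442 over all omissions). Against 0h the 48h difference was 0.01, with a 95% interval of -0.35 to 0.38.

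p63, from Trp63 (chromosome 16, 25683763 to 25892102, plus strand, GRCm38), is the family member that basal keratinocytes depend on. Its row pools transcripts with and without the transactivation domain, which the table does not separate. Trp63 had 34.9 and 37 FPKM at 0h, 32.9 and 40.3 FPKM at 6h, 31.1 and 27.1 FPKM at 12h, 24.6 and 28.2 FPKM at 24h, and 36.3 and 40.4 FPKM at 48h. The order of the times resembled that of Trp53, with 12h and 24h below both 0h libraries. The level averaged 26.4 ± 2.5 FPKM at 24h and 36 ± 1.52 FPKM at 0h (SD, n = 2 each), a log2 difference of -0.43 (SE 0.137, limma adjusted p = 0.118). From 24h to 48h the difference was 0.52 (adjusted p = 0.0779). The ratio of Trp63 to Trp53 within a library had means between 0.893 (12h) and 1.05 (48h) at the later times, against 0.994 at 0h. Over the 10 libraries their log2 levels had a Pearson r of 0.868, a description of libraries that share times.

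The list of basal keratinocyte genes was read beside Trp63 because p63 is known to act in basal keratinocytes. The list also holds regulators of the epidermis that do not mark basal cells alone, such as Ovol1 and Zfp750. Of 20 tested, 5 rose and 2 fell at 48h against 0h, beside 4.8% and 4.12% of all tested genes called higher and lower. Krt5, a basal keratin, averaged 3013 ± 168 FPKM at 48h and 1521 ± 145 FPKM at 0h (SD, n = 2 each), a log2 difference of 0.99 (limma adjusted p = 0.00732). Krt14, its partner, rose by 1.17 (adjusted p = 0.0113), and Itgb4, Col17a1 and Lama3, which anchor basal cells, also rose, while Tfap2a and Ovol1, transcription factors of the epidermis, fell. At 24h 1 of the 20, Fgfr2, fell and none rose, beside 1.94% and 1.37% of all genes called lower and higher. Trp63 at 48h differed from 0h by 0.09, with a 95% interval of -0.22 to 0.40. Zfp750, a regulator of epidermal differentiation, passed the F test over all times but no comparison with 0h (0.39 at 6h and -0.18 at 48h). The summed level of the list was 15390 and 16040 FPKM at 48h, against 9473 and 11040 FPKM at 0h. Krt5 and Krt14 made up most of that rise, Krt14 averaging 5304 ± 392 FPKM at 48h and 2359 ± 283 FPKM at 0h (SD, n = 2 each). Of the 20 genes, 13 were higher and 7 lower at 48h than at 0h. The part of these cells in the 48h levels of the other genes was not tested.

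Mdm2 (chromosome 10, 117688875 to 117710758, minus strand, GRCm38) encodes the ligase that limits p53. It had 13.5 and 14.9 FPKM at 0h, 19.8 and 22.1 FPKM at 6h, 19.5 and 18.8 FPKM at 12h, 20.4 and 20.3 FPKM at 24h, and 20.2 and 23.7 FPKM at 48h. All 8 later libraries, at 18.8 to 23.7 FPKM, lay above both 0h libraries. The share of all tested genes with every later library above 0h was not counted. At single times it was 23.1% (6h) and 27% (48h). At 48h Mdm2 averaged 22 ± 2.42 FPKM, against 14.2 ± 0.997 FPKM at 0h (SD, n = 2 each). The log2 difference was 0.59 (SE 0.122, 95% interval 0.32 to 0.86), a 1.51-fold rise on the FPKM + 1 scale, with a limma adjusted p of 0.0169. At 48h 8.92% of all tested genes were called, and 4.8% were called higher, beside 1 of these 9 genes. The call was lost when 0h library 2 was left out (adjusted p = 0.0995), and likewise for 0h library 3 (0.0529) and for 48h library 3 (0.145), and it held when any other single library was omitted. Under the other processing choices its adjusted p ran between 0.00996 and 0.0361.

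The differences at the earlier times were of similar size and did not pass. Mdm2 was higher by 0.53 at 6h (adjusted p = 0.147), by 0.40 at 12h (0.152) and by 0.49 at 24h (0.0625), each against 0h. Their 95% intervals, from 0.25 to 0.80, 0.13 to 0.68 and 0.22 to 0.76, overlap widely with that at 48h. At 24h Mdm2 passed with median-of-ratios scaling (adjusted p = 0.023) and with quantile normalization (0.0268), and over all processing choices the p ran between 0.023 and 0.111. Called genes were 0.044% of all tested genes at 6h, 1.08% at 12h and 3.32% at 24h, and none of the 9 was among them. With limma's unadjusted p under 0.05 there were 1 of the 9 at 6h, beside 12.3% of all genes, 1 at 12h (15.8%) and 3 at 24h (20.6%), against 0h in each case.

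The RefSeq promoter windows run from 250 bases before to 50 bases after an annotated start in GRCm38.p6, and 8 of the 9 genes have one. They were searched on both strands for the p53 decamer, the 10-base unit of which p53 binds a closely spaced pair, for the CCAAT box, for the E2F motifs GGCGGGAA, TTTGGCGC and TTTCGCGC, and for the cell cycle homology elements TTTGAA and TTCGAA. No 2 matches overlapped in the windows shown. Mdm2 and Ppm1d are printed as the known p53 targets among the 9, at chr10:117710709-117711008 (minus strand) and chr11:85311004-85311303 (plus strand), and Chek1 as the kinase with an E2F match, at chr9:36726609-36726908 (minus strand). All read 5′ to 3′ on the strand of the gene, and capitals mark the matches.
Mdm2: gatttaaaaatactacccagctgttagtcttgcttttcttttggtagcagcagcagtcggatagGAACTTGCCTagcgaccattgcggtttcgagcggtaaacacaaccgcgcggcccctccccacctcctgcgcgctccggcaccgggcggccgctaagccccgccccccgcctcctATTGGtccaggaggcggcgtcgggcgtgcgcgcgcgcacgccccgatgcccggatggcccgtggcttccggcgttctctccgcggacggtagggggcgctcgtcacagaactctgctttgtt
Ppm1d: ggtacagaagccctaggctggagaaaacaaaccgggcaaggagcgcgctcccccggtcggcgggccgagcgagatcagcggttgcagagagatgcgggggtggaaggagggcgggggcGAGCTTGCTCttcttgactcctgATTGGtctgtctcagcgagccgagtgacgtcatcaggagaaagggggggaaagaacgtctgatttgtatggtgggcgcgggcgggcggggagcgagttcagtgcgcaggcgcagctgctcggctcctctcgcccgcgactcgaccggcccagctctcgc
Chek1: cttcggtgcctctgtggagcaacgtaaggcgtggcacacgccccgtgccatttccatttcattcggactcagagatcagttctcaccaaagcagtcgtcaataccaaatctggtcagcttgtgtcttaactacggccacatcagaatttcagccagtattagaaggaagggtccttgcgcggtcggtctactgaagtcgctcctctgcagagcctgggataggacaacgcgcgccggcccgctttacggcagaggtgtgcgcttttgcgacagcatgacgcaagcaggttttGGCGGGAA
The decamer match of Mdm2, GAACTTGCCT, begins 186 bases before the start, and that of Ppm1d, GAGCTTGCTC, 132 bases before it. Trp53 holds one as well, GGACTTGCCC, 75 bases before its start. A decamer match occurs in 8.36% of 32851 windows of this length. The well-known p53 response elements of Mdm2 lie in its first intron, outside this window. CCAAT boxes, read here as ATTGG, were in the windows of Trp53, Mdm2, Ppm1d, Atm and Chek2 and in 37.4% of all windows. The only E2F match was GGCGGGAA in Chek1, 42 bases after the start, a motif in 2.19% of all windows, and Atr held TTCGAA, found in 1.56%. Mdm4, with 2 windows, held none of the motifs, and none of the 9 windows held TTTGGCGC, TTTCGCGC or TTTGAA, found in 0.514%, 0.323% and 17.9% of all windows.

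Mdm4 (chromosome 1, 132959484 to 133030561, minus strand) and Ppm1d (chromosome 11, 85311244 to 85347066, plus strand, both GRCm38) are the other restraints on p53. Mdm4 had 14 and 18.7 FPKM at 0h, 18 and 21 FPKM at 6h, 18.1 and 14.5 FPKM at 12h, 16.1 and 15.5 FPKM at 24h, and 18.3 and 18.7 FPKM at 48h. No time stood clear of 0h, and at 48h the log2 difference from 0h was 0.18 (95% interval -0.17 to 0.54, limma adjusted p = 0.523). Ppm1d had 8.51 and 12 FPKM at 0h, 12 and 15.2 FPKM at 6h, 13.4 and 9.74 FPKM at 12h, 11.7 and 10.9 FPKM at 24h, and 11.7 and 12.3 FPKM at 48h. Its largest difference from 0h was at 6h, 0.39 (95% interval -0.04 to 0.81, limma adjusted p = 0.442). The 2 libraries at 0h were far apart for both genes, and 0h library 2 was the lowest of all 10 for Mdm2, Mdm4, Ppm1d and Atm. Mdm4 and Ppm1d had a Pearson r of 0.921 over the 10 libraries on the log2 scale, a description of libraries that share times. At each time the 2 libraries differed in the same direction for both genes, so this r does not reflect time alone.

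**Figure D2:**
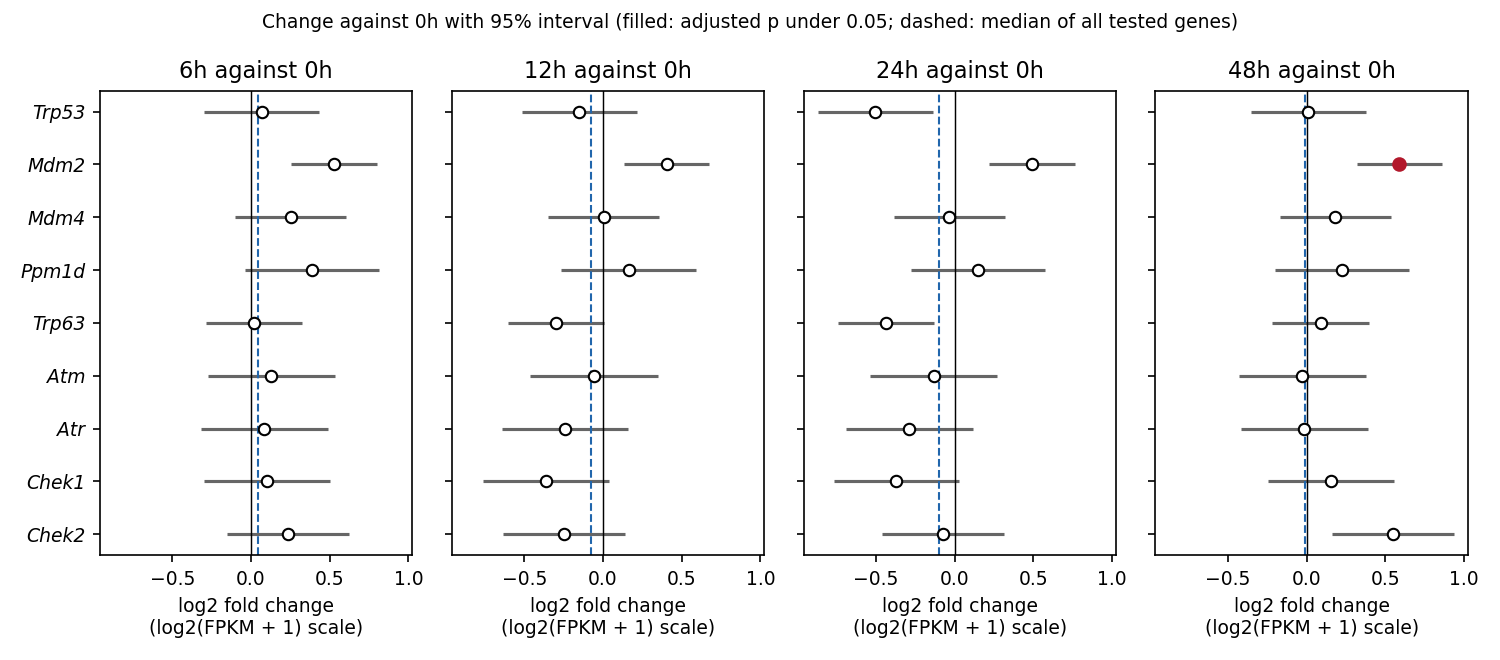
Differences from 0h at 6h, 12h, 24h and 48h (panels) for the 9 genes (rows), as log2 fold changes on the log2(FPKM + 1) scale, positive where the later time was higher. Bars are 95% intervals, the filled point passed the adjusted threshold and the dashed line is the median of all tested genes. Mdm2 and Ppm1d lie to the right of 0 in all 4 panels, and only Mdm2 is filled, at 48h.

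Ratios of FPKM within a library do not depend on how libraries are scaled to each other. The log2 ratios of FPKM + 1 tested below do depend on it through the added 1, most for genes with low levels. The ratio of Mdm2 to Trp53 was 0.356 and 0.432 at 0h, 0.631 and 0.478 at 6h, 0.591 and 0.584 at 12h, 0.823 and 0.79 at 24h, and 0.584 and 0.614 at 48h. Every later library was above both 0h libraries, and the highest values were those of 24h, the time at which Trp53 was lowest. Mdm2 to Mdm4 had means between 1.07 (6h) and 1.29 (24h) at the later times, against 0.882 at 0h. In an exact permutation test of differences among the 5 times, over all 945 pairings of the libraries and on log2 ratios of FPKM + 1, the p was 0.0159 for Mdm2 to Trp53 and 0.0275 for Mdm2 to Mdm4. After adjustment over the 6 ratios tested both were 0.0825, so neither passed, and the smallest p the design allows is 0.00106. The other 4 ratios had adjusted p of 0.353 for Ppm1d to Trp53, 0.353 for Chek1 to Chek2, 0.305 for Atm to Atr and 0.458 for Trp63 to Trp53. Without the added 1, the same test gave an adjusted p of 0.0857 for Mdm2 to Trp53 and 0.0857 for Mdm2 to Mdm4.

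**Figure D3:**
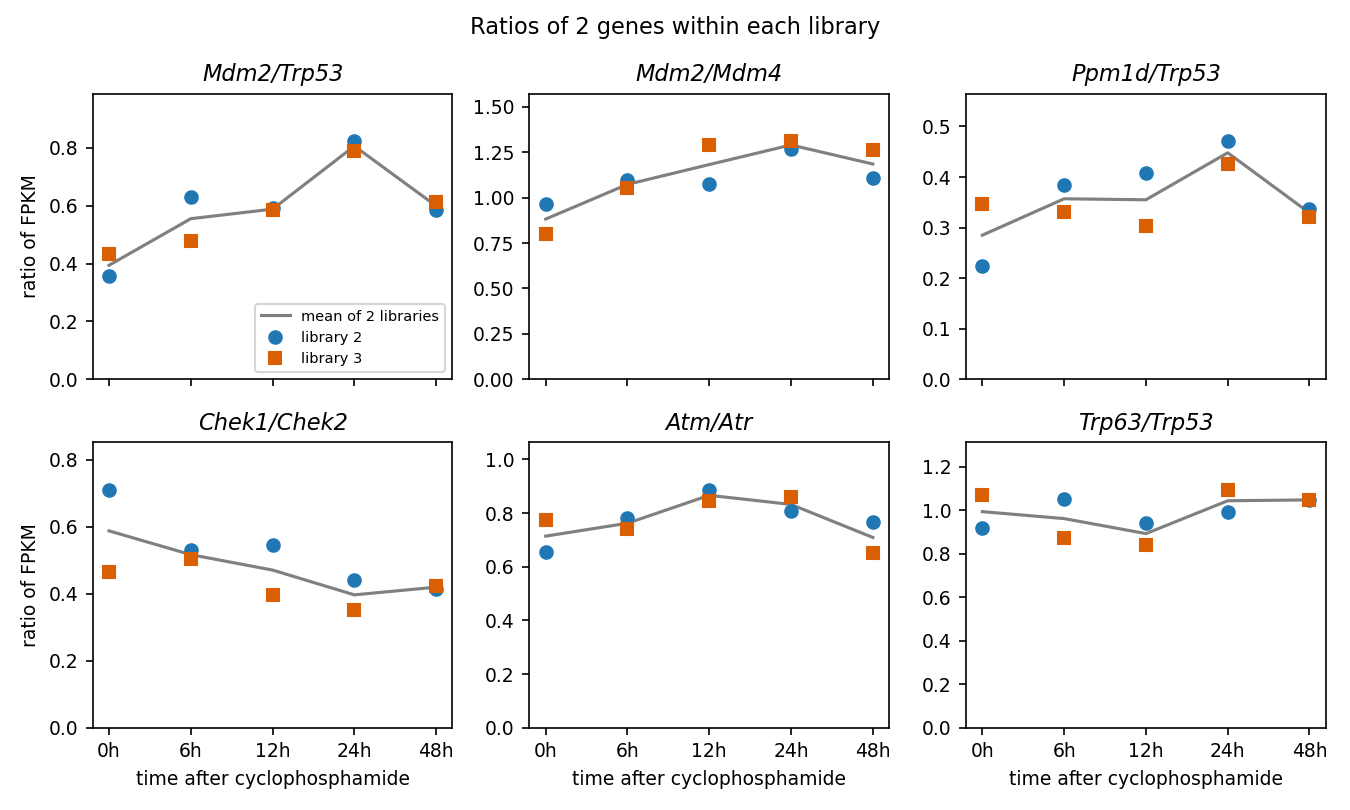
Ratios of FPKM between 2 genes within each library (vertical axes, each from 0) at the 5 times (horizontal axis, evenly spaced). Circles and squares are the 2 libraries of a time and lines join their means. The ratio of Mdm2 to Trp53 averages 0.806 at 24h and 0.394 at 0h, and Chek1 to Chek2 averages 0.42 at 48h and 0.588 at 0h.

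Of the apical kinases, ATM responds mainly to double-strand breaks and ATR to single-stranded DNA at stalled forks. Atm (chromosome 9, 53439149 to 53536740, minus strand, GRCm38) had 1.23 and 1.89 FPKM at 0h, 1.72 and 1.83 FPKM at 6h, 1.64 and 1.26 FPKM at 12h, 1.37 and 1.26 FPKM at 24h, and 1.35 and 1.64 FPKM at 48h. The 0h libraries enclosed all the later values of Atm. Atr (chromosome 9, 95857597 to 95951781, plus strand, GRCm38) had 1.87 and 2.45 FPKM at 0h, 2.21 and 2.46 FPKM at 6h, 1.85 and 1.49 FPKM at 12h, 1.7 and 1.46 FPKM at 24h, and 1.76 and 2.52 FPKM at 48h. Atr was below both 0h libraries at 12h and 24h and overlapped them at 48h. At 48h the log2 difference from 0h was -0.03 for Atm (95% interval -0.43 to 0.38) and -0.01 for Atr (-0.42 to 0.39), intervals that leave room for changes of either sign. Annotated antisense RNAs share exonic bases with Atr, 3.07% of its exonic length in the case of 1700065D16Rik, and the sources used here do not say whether counting used strand.

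The effector kinases passed no comparison but showed wider swings. CHK1 holds the replication and G2 checkpoints downstream of ATR, and Chek1 lies on chromosome 9, 36708482 to 36727065, minus strand, GRCm38. Chek1 had 1.81 and 1.65 FPKM at 0h, 2.18 and 1.69 FPKM at 6h, 1.38 and 0.89 FPKM at 12h, 1.17 and 1.06 FPKM at 24h, and 2.24 and 1.86 FPKM at 48h. All 4 libraries at 12h and 24h were below all 6 others, a split read from the values, and its share of all tested genes was not counted. At single times, both libraries lay below both of 0h for 32.3% of all tested genes at 12h and 37.2% at 24h. At 24h it averaged 1.11 ± 0.0778 FPKM, against 1.73 ± 0.109 FPKM at 0h (SD, n = 2 each), a log2 difference of -0.37 (limma adjusted p = 0.274). Between 48h and 24h the difference was 0.53 (95% interval 0.13 to 0.93, adjusted p = 0.151).

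CHK2 acts downstream of ATM, and Chek2 lies on chromosome 5, 110839979 to 110874145, plus strand, GRCm38. Chek2 had 2.54 and 3.55 FPKM at 0h, 4.12 and 3.36 FPKM at 6h, 2.53 and 2.25 FPKM at 12h, 2.64 and 3 FPKM at 24h, and 5.39 and 4.38 FPKM at 48h. The 48h libraries were the highest of the 10. Chek2 averaged 4.89 ± 0.712 FPKM at 48h and 3.05 ± 0.712 FPKM at 0h (SD, n = 2 each), a log2 difference of 0.55 (SE 0.174, 95% interval 0.16 to 0.93, limma adjusted p = 0.0816). Against 24h the 48h level was higher by 0.62 (adjusted p = 0.0934). The 2 effector kinases had a Pearson r of 0.79 over the 10 libraries, and Atm and Atr 0.862, descriptions of libraries that share times.

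The differences of the 9 genes were set beside those of all tested genes. Their median log2 difference from 0h was 0.13 at 6h and 0.16 at 48h, beside 0.04 and -0.01 over all tested genes. It was -0.15 at 12h and -0.13 at 24h, beside -0.07 and -0.10. With median-of-ratios scaling these medians were -0.07 at 12h and -0.07 at 24h, and with hair genes left out -0.05 and -0.10, while that at 48h was 0.10 with quantile normalization. Both libraries of a time lay above both 0h libraries for 2 of the 9 at 6h, as for 23.1% of all tested genes, and for 3 of the 9 at 48h, as for 27%. Both lay below for 5 of the 9 at 12h (32.3% of all genes) and for 4 of the 9 at 24h (37.2%). At 48h against 24h all 9 differences were positive on the deposited scale (median 0.27, beside 0.09 over all genes), but 7 of the 9 with median-of-ratios scaling and 8 of the 9 with quantile normalization. For 7 of the 9 the 48h libraries lay above both 24h libraries, as for 37.6% of all genes. None of the 9 passed between 48h and 24h, beside 2.26% of all genes, and 4 had an unadjusted p under 0.05, beside 18.8% of all genes. None of the 9 passed between 12h and 6h, where limma called 0% of all genes, or between 24h and 12h, where it called 0.022%. At 12h 6 of the 9 had both libraries below both of 6h, as did 35.6% of all genes. Their unadjusted p was under 0.05 for 3 of the 9 and 11.4% of all genes between 12h and 6h, and for 0 of the 9 and 9.9% of all genes between 24h and 12h. In the F test over the 4 later times against 0h, none of the 9 passed with limma, beside 7.35% of all genes. The smallest adjusted p were 0.0583 for Mdm2, 0.0769 for Chek2 and 0.0924 for Trp63, and 5 of the 9 had an unadjusted p under 0.05, as did 28.7% of all genes.

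The genes around these 9 were read from lists of known components. Among 38 established p53 targets other than Mdm2 and Ppm1d, none passed at 6h, when their median log2 difference from 0h was 0.50. At 12h 6 rose (median 0.38), beside 0.279% of all genes called higher, at 24h 7 rose (median 0.38), beside 1.37%, and at 48h 20 rose (median 0.58), beside 4.8%. None of the 38 fell against 0h at any time. Dcxr, a carbonyl reductase, averaged 126.6 ± 16.9 FPKM at 48h and 35.4 ± 0.522 FPKM at 0h (SD, n = 2 each), a log2 difference of 1.80 (limma adjusted p = 0.000102). Eda2r, a receptor for ectodysplasin, averaged 5.05 ± 0.491 FPKM at 48h and 0.898 ± 0.226 FPKM at 0h (SD, n = 2 each). Its log2 difference was 1.68 (limma adjusted p = 0.000726). The epoxide hydrolase Ephx1 (1.54) and the p53-binding Gtse1 (1.22) rose as well. Bbc3, which encodes the death protein PUMA, rose by 1.37 at 12h and by 0.98 at 48h, and Bax rose by 0.49 at 48h. Cdkn1a, the cell cycle inhibitor p21, averaged 241.4 ± 12.3 FPKM at 48h and was abundant at 0h too, with 190.4 ± 0.825 FPKM (SD, n = 2 each, log2 difference 0.34, adjusted p = 0.112). Ccng1 (0.41 at 48h, adjusted p = 0.091) did not pass either. The count at 48h was 9 when 0h library 2 was left out, 10 for 0h library 3 and 7 for 48h library 3. At 12h it was 0 when either 0h library or 12h library 2 was left out and 1 for 12h library 3. At 24h it was 2 when either 0h library or 24h library 3 was left out and 4 for 24h library 2. The list was written with earlier results of these data known, so its count is not independent evidence of its direction.

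Upstream of p53, few of the other genes passed. Of 26 damage sensors and mediators, 2 fell at 24h against 0h and none rose, beside 1.94% and 1.37% of all tested genes called lower and higher. H2afx, the histone whose phosphorylation marks breaks, averaged 43.3 ± 1.3 FPKM at 24h and 98.8 ± 21.2 FPKM at 0h (SD, n = 2 each), a log2 difference of -1.16 (limma adjusted p = 0.0108), and Parp1, a sensor of strand breaks, fell by 0.79 (adjusted p = 0.0197). None of the 26 passed at 6h, 12h or 48h. Of 31 tested regulators of p53 beyond the 9, Trim28, a partner of MDM2, and Prmt5, a methyltransferase that modifies p53, fell at 24h by 0.61 and 0.60. Smyd2, another p53 methyltransferase, fell at 48h by 0.40, beside 4.12% of all genes called lower. Usp7, which deubiquitinates MDM2 and p53, had a log2 difference of -0.22 at 48h (adjusted p = 0.243). Cdkn2a, whose ARF product inhibits MDM2, was low, at 1.31 ± 0.398 FPKM at 48h and 0.403 ± 0.0594 FPKM at 0h (SD, n = 2 each, adjusted p = 0.185). Trp73, the third family member, had 3.92 ± 0.0185 FPKM at 48h and 1.84 ± 0.105 FPKM at 0h (SD, n = 2 each, adjusted p = 0.0924).

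The checkpoint kinases act on the cell cycle, and a minority of its listed genes passed. Of 24 G2/M genes, 4 fell at 12h, beside 0.8% of all genes called lower, and 4 at 24h, beside 1.94%. None of them passed at 6h or 48h, and the differences of all 24 from 0h were negative at the first 3 times. Cks2, a cofactor of cyclin-dependent kinases, averaged 40.4 ± 7.44 FPKM at 12h and 104.4 ± 3.97 FPKM at 0h (SD, n = 2 each), a log2 difference of -1.36 (limma adjusted p = 0.0155). Cyclin Ccnb2 (-1.34) and the spindle genes Kif22 (-1.18) and Prc1 (-0.88) fell at 12h as well. Mki67, a marker of cycling cells, fell by 1.16 at 24h (adjusted p = 0.0228). Among 29 tested E2F and S phase genes, 1 fell at 12h (Gins2), beside 0.8% of all genes, and 1 at 24h (E2f2), beside 1.94%. Cdc45 rose and E2f2 fell at 48h, beside 4.8% and 4.12% of all genes called higher and lower. At 48h against 24h 5 of the 29 rose, beside 1.22% of all genes called higher, among them the helicase subunit Mcm5 (0.82, adjusted p = 0.04) and Uhrf1 (0.95, adjusted p = 0.0214), with Cdc45, Cdt1 and Tk1. The all-gene split at 48h against 24h was 166 higher and 142 lower, and 85 higher and 196 lower with median-of-ratios scaling. Pcna, the replication clamp, had a log2 difference of 0.11 at 48h against 0h (adjusted p = 0.763). Of 15 checkpoint effectors, Plk1, a mitotic kinase, fell at 24h by 1.23, beside 1.94% of all genes called lower. Plk1 is also among the G2/M genes counted above at 24h. In the list of effectors, Gadd45a, a damage-induced gene and p53 target, rose at 48h by 1.10, beside 4.8% called higher. Cdc25b, a phosphatase that activates cyclin-dependent kinases, rose at 48h against 24h by 0.82, beside 1.22% called higher. Cdk1, the mitotic kinase, and Cdc25c, its activator, had differences of -0.90 and -1.21 at 12h against 0h, and neither passed (adjusted p = 0.0847 and 0.0586).

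**Figure D4:**
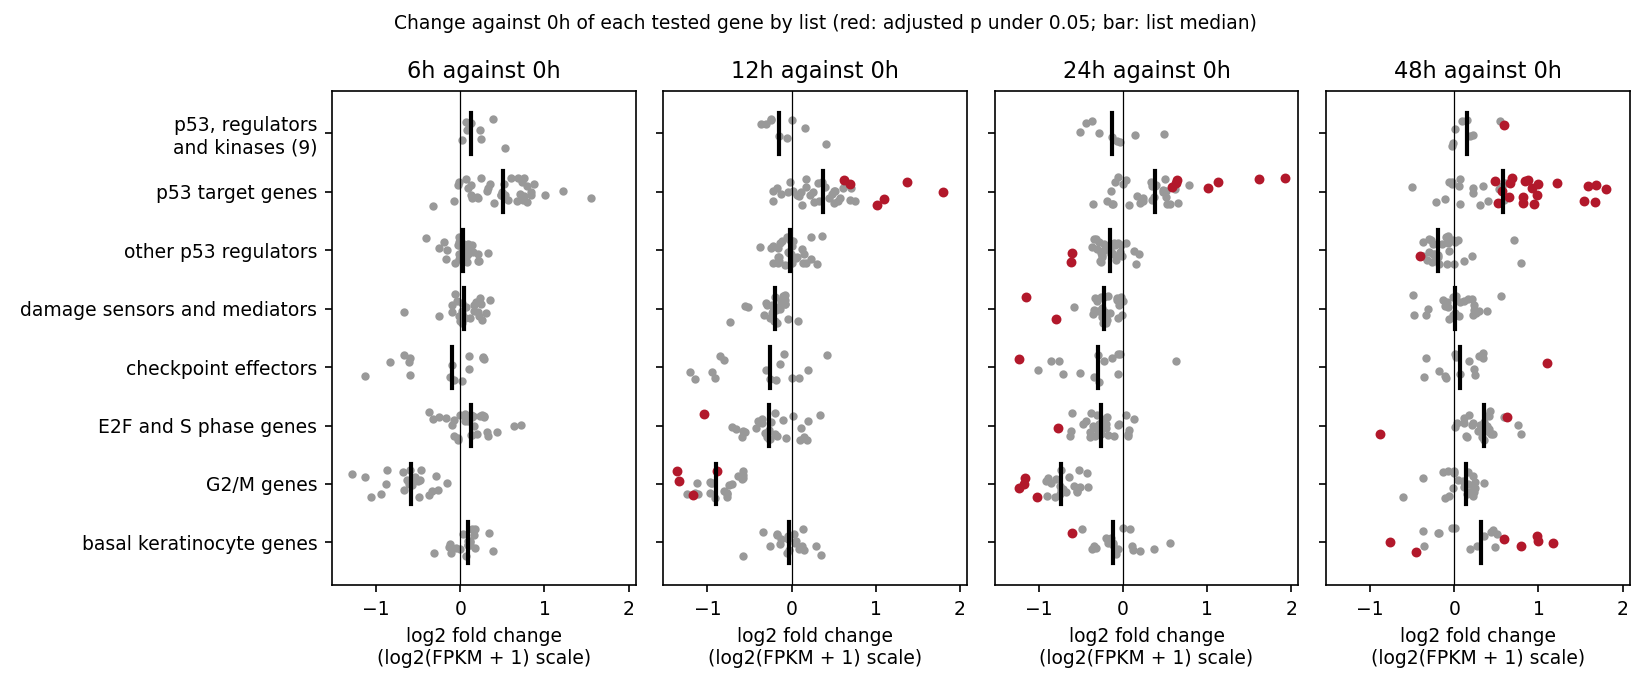
Log2 fold change against 0h of each tested gene (points) at 6h, 12h, 24h and 48h (panels), for the 9 genes and for 7 lists of related genes (rows), on the log2(FPKM + 1) scale. Positive values are higher at the later time, dark bars are medians and red points passed the adjusted threshold. At 48h 20 of the 38 p53 targets and 1 of the 9 genes are red on the right, and G2/M genes lie to the left of 0 at 6h, 12h and 24h.

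Of all tested genes, those whose levels followed each member most closely were found by Pearson r of log2(FPKM + 1) over the 10 libraries, which share times and therefore are no independent points. For Mdm2 they were Btg2 (0.978), an antiproliferative gene, Trp53inp1 (0.951), Abhd4 (0.948), Lbp (0.945) and Zfand2a (0.935). The first 3 of these are in the list of p53 targets. Chek1 was followed most closely by Cdc7 (0.958), the kinase that fires replication origins, Camta1 and Dut (0.952 each), Pycr1 (0.949) and Mcm7 (0.948). For Trp53 the nearest was R3hdm4 (0.978), for Trp63 Coro1a (0.967), for Atr Ttf2 (0.983), for Atm Odf2l (0.963), for Chek2 Ppapdc1b (0.949), for Mdm4 Pigg (0.942) and for Ppm1d Egfr (0.94). Trp53 and Mdm2 had an r of -0.04.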

How the data were processed

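The authors' table held 1 FPKM column for each of 10 libraries. The submitters' processing notes list TopHat2 2.1.1, Cufflinks 2.2.1 and mm10. The header names no unit, and FPKM was read from those tools and the values. No source used here gives the annotation, the use of strand or any scaling of libraries. Columns carry replicate numbers 2 and 3 while labels carry 1 and 2, so columns were matched to times only and are called library 2 and library 3 here. The labels do not tie a library to its own mouse, so the p-values reflect the spread of these libraries alone, which may be technical. Of 24358 rows, 27 whose symbols had become dates were left out.

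Genes reaching 1 FPKM in 2 or more libraries (13625, all 9 members among them) were fitted with limma 3.58.1 in R 4.3.3 on log2(FPKM + 1), all libraries in 1 fit with a mean per time and an intensity trend, and tested on simulated data first. There were 5 residual degrees of freedom. Differences are later minus earlier time. Positions are from GENCODE M21. Genes named beyond the 9 were up to 4 per list with the smallest F-test adjusted p, a set of fixed genes and, for each member, its 5 closest genes, leaving out predicted genes. Others named in the text, such as Trim28 or Gadd45a, were chosen after their values were seen because few of a list passed. Members and lists were chosen with earlier results of these data known. Pseudogenes of Trp53 and Mdm4 exist, and no source used here says how shared reads were counted. Same-numbered libraries deviated together with correlations of -0.104 to 0.216 between times, so the numbers were not taken as pairs.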

Additional observations from a re-analysis of the deposited data

How the results depend on the processing

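Of 385 values for the 9 genes under other processing choices, 371 kept their direction and their side of the threshold, 2 passed where the reported value did not (Mdm2 at 24h against 0h, 0.59 with median-of-ratios scaling, 0.58 with quantile normalization) and 12 turned sign. No value that turned sign, omitted libraries included, was larger than 0.205 or had an adjusted p under 0.654. With median-of-ratios scaling the values that turned sign were, against 0h, -0.029 for Trp63 at 6h, 0.066 for Mdm4 and 0.007 for Chek2 at 24h, and between 48h and 24h -0.003 for Mdm2 and -0.018 for Ppm1d. With quantile normalization they were 0.031 for Atm at 12h, 0.054 for Mdm4 at 24h and -0.018 for Ppm1d between 48h and 24h. With hair genes left out they were 0.007 for Atm at 12h, 0.038 for Mdm4 at 24h, and 0.031 for Atm and 0.052 for Atr at 48h. The F test called 1 of the 5 genes that reach a mean of at least 5 FPKM under that filter, and 1 of the 9 with either scaling, by median of ratios or by quantiles, each of which also called 1 at 24h against 0h. Apart from the alternatives' own construction, the cause was not tested.

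Counts over all genes moved more. With no filter on low values limma called 3 at 6h, 4 at 12h and 179 at 24h against 0h, 2 between 12h and 6h, 112 between 48h and 24h, and 417 in the F test; a mean of at least 5 FPKM gave 2 at 6h. At 12h against 0h median-of-ratios scaling gave 85 and leaving out hair genes 97. Between 24h and 12h a pseudocount of 0.1 gave 10, median-of-ratios scaling 10 and leaving out hair genes 5, and without an intensity trend 2 were called between 12h and 6h. Fits of the 2 times alone gave 35 at 6h, 244 at 24h, 1 between 12h and 6h, 0 between 24h and 12h and 0 between 48h and 24h, and 3 p53 targets that rose at 12h and 4 at 24h. With the replicate block, by numbers that were not taken as pairs, limma called 99 at 6h, 322 at 12h, 5 between 12h and 6h, 42 between 24h and 12h and 507 between 48h and 24h, and 17 of the G2/M genes in the F test, and it changed no call of the 9 genes.

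In the F test over the later times against 0h, 7.35% of all tested genes passed. Beside that share, 2 of 26 damage sensors, 5 of 15 checkpoint effectors and 1 of 31 other p53 regulators passed. So did 14 of 38 p53 targets, 7 of 29 E2F and S phase genes, 9 of 24 G2/M genes and 5 of 20 basal keratinocyte genes. With no filter on low values the counts were 0, 0 and, for p53 targets, 9, then 1 for E2F and S phase genes, 1 for G2/M genes and 0 for basal keratinocyte genes, and 1 p53 target rose at 12h. Median-of-ratios scaling gave 1 damage sensor, 1 checkpoint effector, 4 E2F and S phase genes and 4 G2/M genes. Quantile normalization gave 1 checkpoint effector and 4 G2/M genes, and 11 p53 targets that rose at 24h. Leaving out hair genes gave 3 checkpoint effectors and 0 other p53 regulators. Without an intensity trend 2 checkpoint effectors, 4 E2F and S phase genes and 3 basal keratinocyte genes passed.

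Leaving out each library in turn gave 0 to 1 of the 9 genes at 24h and at 48h against 0h, between 48h and 24h, and in the F test. All-gene counts ran over 1 to 14 at 6h, 0 to 243 at 12h, 34 to 596 at 24h, 339 to 1400 at 48h, 0 to 8 between 12h and 6h, 1 to 7 between 24h and 12h, 18 to 352 between 48h and 24h, and 193 to 1051 in the F test. F test counts ran over 0 to 3 damage sensors, 0 to 5 checkpoint effectors, 0 to 2 other regulators, 4 to 13 p53 targets, 0 to 9 E2F and S phase genes, 1 to 16 G2/M genes and 0 to 5 basal keratinocyte genes. p53 targets that rose ran over 0 to 8 at 12h, 2 to 8 at 24h and 7 to 19 at 48h. Where an omission turned the sign of a single gene's difference, at 6h against 0h it ran over -0.123 to 0.159 for Trp63, -0.06 to 0.318 for Atm, -0.049 to 0.213 for Atr, -0.02 to 0.223 for Chek1 and -0.205 to 0.34 for Trp53, at 12h against 0h it ran over -0.19 to 0.199 for Mdm4, -0.063 to 0.389 for Ppm1d and -0.245 to 0.133 for Atm, at 24h against 0h it ran over -0.08 to 0.372 for Ppm1d, -0.229 to 0.159 for Mdm4, -0.323 to 0.054 for Atm and -0.254 to 0.107 for Chek2, at 48h against 0h it ran over -0.012 to 0.376 for Mdm4, -0.063 to 0.086 for Trp53, -0.216 to 0.162 for Atm and -0.19 to 0.162 for Atr, and between 48h and 24h it ran over -0.009 to 0.207 for Mdm2. Log2 ratios at 48h minus 0h ran over -0.077 to 0.508 for Ppm1d to Trp53, -0.611 to -0.169 for Chek1 to Chek2, -0.104 to 0.079 for Atm to Atr, -0.031 to 0.187 for Trp63 to Trp53, 0.445 to 0.712 for Mdm2 to Trp53 and 0.28 to 0.535 for Mdm2 to Mdm4. With 2 libraries a time, leaving out 1 leaves a lone library that is assumed to vary like the others, and changes under about the 95% intervals given above could not be resolved. Read totals behind FPKM are unknown.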
